A study of Mus musculus with 6 samples.

Results

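The chromosome architecture of Erg-sufficient proB cells was described from the 4 control libraries of an in situ Hi-C series of 6 libraries. Members were chosen by genotype label, and the 2 Erg KO libraries were not used. The CreT control (Rag1CreT/+, n = 2 libraries, both female) had intact Erg alleles and carried the Rag1CreT transgene, which expresses Cre recombinase from the common lymphoid progenitor on. The Erg fl/fl control (Rag1Cre+/+;Erg fl/fl, n = 2 libraries, replicate 1 female and replicate 2 male) had loxP-flanked Erg alleles and, by its label, no copy of the transgene, so that neither genotype deletes Erg. Erg is one of the ETS transcription factors. All libraries came from mice of the background strain labelled C56BL/6. Bone marrow depleted of mature lineages had been grown for 8 days on OP9 cells, a stromal feeder line, in medium that held FL, SCF and IL7, growth factors of early lymphoid cells, and B220 positive cells were selected. B220 marks the B lineage but not a single stage, and Hi-C measures no RNA, so the cell type could not be checked from transcripts.

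In situ Hi-C cuts chromatin in the nucleus, joins ends that lie together and sequences them in pairs, and every pair of reads stands for a contact. Interphase chromosomes divide into an A compartment, which is rich in genes and open chromatin, and a B compartment, which is poor in genes and often lies at the nuclear lamina. At a finer scale they fold into domains within which contacts are frequent. Many domain borders hold sites of CTCF, a zinc finger protein that halts cohesin as it extrudes chromatin loops, and loops form most readily between CTCF sites whose motifs point at each other. In B-cell progenitors the factors Ebf1 and Pax5 install the B-lineage programme, and long-range contacts bring distal immunoglobulin segments towards the recombination centre.

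The control libraries held between 29014581 and 68085468 read pairs, 203180367 in all, given as counts between bins, each near 100 kb long, of the mm10 genome. Between 73.2% and 78.4% of autosomal read pairs joined bins of the same chromosome. Of 24067 autosomal bins 23646 had total contacts between 0.3 and 3 times the median over all autosomal bins and were kept. Erg fl/fl control replicate 2 was both the shallowest library and the only male one, so that depth and sex cannot be told apart there. Both CreT libraries were deeper than both Erg fl/fl libraries, so that the parts of depth and genotype cannot be separated. In a map of a cell population, a contact made in fewer cells and one made less often in each cell cannot be told apart either. Values are given as the mean ± SD over the 4 libraries, 2 of each of 2 genotypes, and no test was run.

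To describe how contacts fell with distance, the mean count of bin pairs was followed across all autosomes. In the summed map a bin pair 0.5 Mb apart held 141 read pairs on average, one 2 Mb apart 29.9 and one 10 Mb apart 7.41. Between 0.5 and 10 Mb the contact frequency fell with an exponent of -0.991 ± 0.0834 (SD, n = 4). CreT control replicates 1 and 2 had exponents of -0.947 and -0.907, and Erg fl/fl control replicates 1 and 2 had -1.01 and -1.10. Both CreT libraries thus fell less steeply than both Erg fl/fl libraries, and the deepest and shallowest libraries stood at the 2 ends. From 0.5 to 2 Mb the exponent was -1.12 ± 0.0409, and Erg fl/fl control replicate 2 had the flattest curve there (-1.07). From 2 to 10 Mb the exponent was -0.866 ± 0.127, so the curves were flatter and the libraries further apart, and Erg fl/fl control replicate 2 was the steepest (-1.04). At 10 Mb a bin pair kept between 4.30% and 5.95% of its mean count at 0.5 Mb. Contacts over more than 10 Mb took 34.2% and 35.3% of contacts within chromosomes in the CreT libraries and 31% and 27.9% in the Erg fl/fl libraries. Thinning every library to the depth of the shallowest left the 4 exponents at -0.947, -0.908, -1.01 and -1.10. Random thinning leaves such a slope unchanged on average, so it cannot show what part depth has in the order of the libraries.

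**Figure D1:**
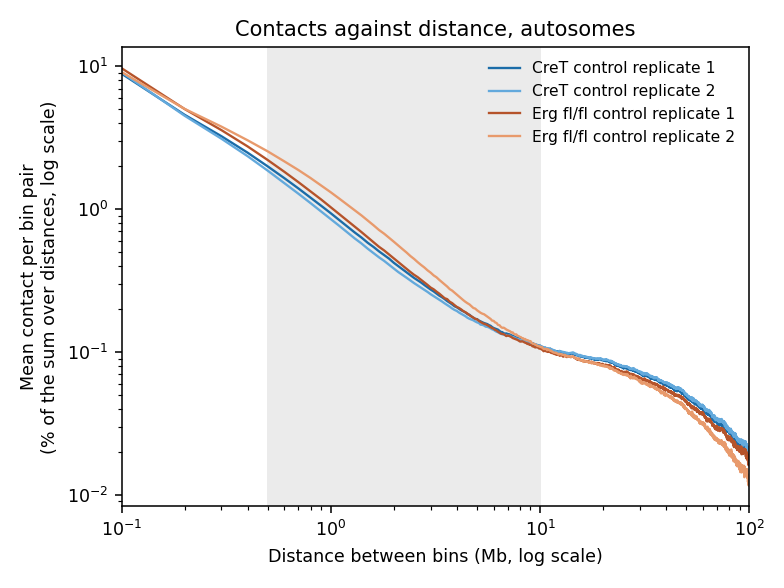
Mean contact per bin pair (y axis, in % of the sum over all distances, log scale) against the distance between bins (x axis, Mb, log scale), 1 line per control library, with the range of the fit from 0.5 to 10 Mb in grey. Erg fl/fl control replicate 2 lies highest between 0.5 and 5 Mb, the 4 lines meet near 10 Mb, and at 50 Mb that library is lowest with 0.0397% against 0.0502% in CreT control replicate 2.

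The division into compartments was read from the main pattern of each chromosome's map, signed so that gene-rich bins score above 0 and scaled to an SD of 1. In all 4 libraries the first component was the one that followed gene density best on 19 of 19 autosomes. Compartment A took 45.2% ± 0.0449 of bins (SD, n = 4), with libraries between 45.1% and 45.2%. Across the 4 libraries 9956 bins (42.1%) lay in A in every library, 12250 (51.8%) in B in every library, and 1440 (6.09%) changed sign between libraries. The bins that changed sign lay close to 0, with a median absolute score of 0.0780 against 1.10 for bins always in A and 0.910 for bins always in B.

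Contacts kept strongly to their own compartment. Bins were ranked by the score of the summed map, which is drawn from these same contacts, so the direction is in part by construction. Among bins 2 Mb or more apart, the 20% of bins with the highest scores met each other 1.78 ± 0.115 times as often as distance alone gives. The 20% with the lowest scores met each other 1.86 ± 0.0300 times as often, and the 2 ends met at only 0.269 ± 0.0374 of the expected frequency (SD, n = 4). The compartment strength, which is the mean of the like pairings over the unlike one, was 7.39 and 8.13 in the CreT libraries and 6.64 and 5.40 in the Erg fl/fl libraries. These values followed the order of depth, and thinning to equal depth left them at 7.41, 8.15, 6.70 and 5.46, in the same order. Random thinning leaves a ratio of means nearly unchanged on average, so it cannot show what part depth has in this order. The spread lay mostly in A with A and A with B contacts, where the libraries ranged from 1.63 to 1.89 and from 0.233 to 0.320, and little in B with B contacts, which ranged from 1.82 to 1.90. The parts of depth, sex and genotype in the order of compartment strength were not tested.

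**Figure D2:**
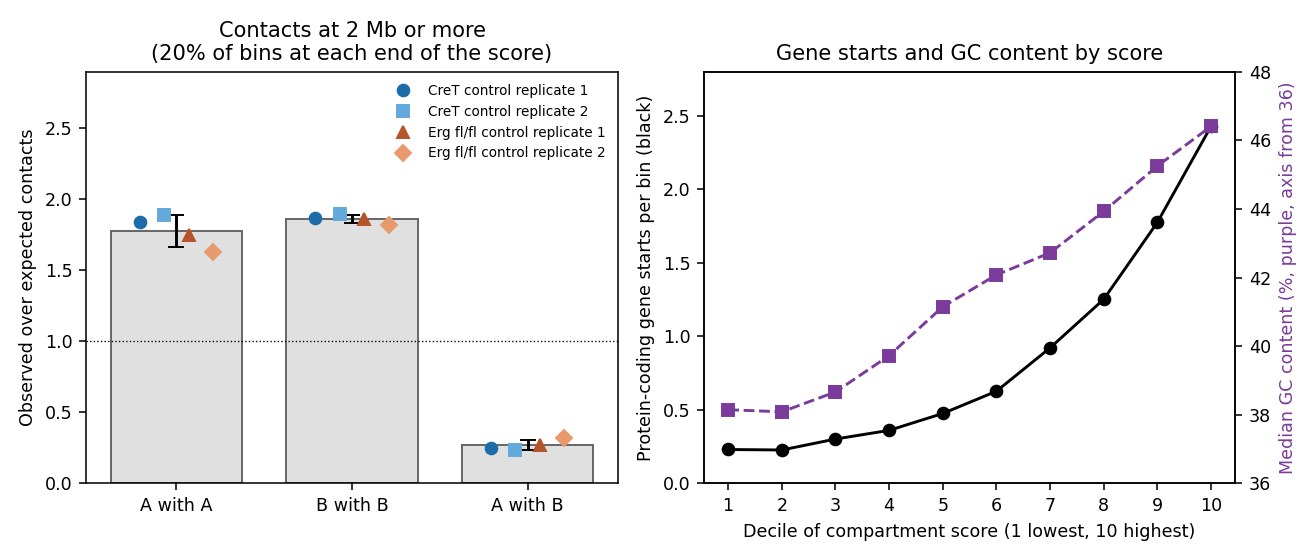
Left, observed over expected contacts at 2 Mb or more among and between the 20% of bins with the highest (A) and lowest (B) compartment scores, with 1 point per library and bars at the mean ± SD (n = 4). Right, protein-coding gene starts per bin (black) and median GC content (purple) by decile of the mean compartment score. Like compartments met 1.78 and 1.86 times as often as distance alone gives and unlike ones 0.269 times, and both gene starts and GC content climb with the score.

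Bins always in A held 76.1% of all protein-coding gene starts, at 1.55 per bin, and bins always in B held 19.98%, at 0.331 per bin. Gene density fixed the sign of the score, so this contrast is in part by construction. GC content did not enter the score, and its median was 44.4% in bins always in A and 39.1% in bins always in B. Soft-masked repeats covered a median of 28.2% of bases in A and 36.3% in B. By decile of score, gene starts went from 0.230 per bin in the lowest to 2.43 in the highest, and the median GC content from 38.1% to 46.4%. The lowest 2 deciles, at 0.230 and 0.227 gene starts, were alike, and the steep part of the curve lay above the sixth decile. Among chromosomes the share of bins in A ran from 42.4% on chromosome 14 to 50.9% on chromosome 13.

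Unbroken stretches of 1 compartment had a median length of 0.4 Mb in A (1054 stretches) and 0.7 Mb in B (1060 stretches). The longest A stretch ran over 13.9 Mb of distal chromosome 4 (chr4:128400739-142299977) and held 263 gene starts, among them Lck, a kinase of T-cell receptor signalling, and Runx3, a factor of cytotoxic T cells. The next longest were chr9:54300091-67400214 with 162 gene starts, chr17:23499743-36500008 with 430, chr2:24199972-36300464 with 264 and chr15:74499352-86500103 with 290. Of these 5 the chromosome 17 stretch carried the most genes. The longest B stretch ran over 12.3 Mb of chromosome 15 (chr15:12900183-25200207) and held 6 gene starts, 5 of them cadherin genes (Cdh6, Cdh9, Cdh10, Cdh12 and Cdh18), which encode cell adhesion proteins used chiefly outside the blood. Next came chr14:87499799-98999639 with 6 gene starts, which include the protocadherin genes Pcdh9 and Pcdh20, and chr2:132899615-143799408 with 29, which include Snap25, a gene of synaptic vesicle release, and Jag1, a Notch ligand. The 2 others were chr1:107600005-118299787 with 11 gene starts and chr11:34799664-43700272 with 24. The A stretches were between 12 and 13.9 Mb long with 162 to 430 gene starts, and the B stretches between 8.90 and 12.3 Mb with 6 to 29.

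The 10 bins with the highest scores lay on only chromosomes 1 and 3. The top bin, chr1:87600063-87699929, holds the start of Inpp5d, the phosphatase SHIP1 that restrains signalling in blood cells. It scored 2.14 and 2.03 in the CreT control and 2.33 and 2.79 in the Erg fl/fl control, a mean of 2.32. Others held Ilf2 and Ints3 (2.28), Pi4kb and Rfx5 (2.28), and a group of 8 gene starts that includes the ribosomal protein gene Rps27 (2.30). The 10 bins with the lowest scores all lay on chromosome 13, and 9 of them held no gene start. The lowest, chr13:72100183-72199921, scored -1.64, -1.57, -1.65 and -2.10 in the 4 libraries. The exception held Cts3 and Ctsm, which are cathepsin genes of a cluster known from the placenta. Scores were scaled within each chromosome, so that ranks between chromosomes rest on that scaling too.

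Compartment scores agreed closely between libraries. Pearson's r over bins was highest between the 2 CreT libraries (0.996) and lowest between CreT control replicate 2 and Erg fl/fl control replicate 2 (0.975), with 0.984 between the 2 Erg fl/fl libraries. Bins of a chromosome are not independent, and these values are a description. The median SD of a bin's score was 0.0882, against a scale of 1, and 95% of bins had an SD under 0.221. The widest spread was in chr13:119599778-119699857, the bin of Ccl28, a chemokine gene, and Hmgcs1, an enzyme of cholesterol synthesis. Its scores were 0.619 and 0.537 in the CreT control and -0.532 and -0.609 in the Erg fl/fl libraries. The neighbouring bin stood among the 3 most variable as well, and 4 adjoining bins of chromosome 1 that include Pid1, from 84.2 to 84.6 Mb, were all higher in both CreT libraries than in both Erg fl/fl libraries. These bins were picked for their spread, so their values are a description. Single bin pairs agreed less well than scores, with r between libraries of 0.635 to 0.775 at 0.5 to 2 Mb, 0.328 to 0.481 at 2 to 10 Mb and 0.180 to 0.347 at 10 to 50 Mb.

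To place domain borders, an insulation score was computed as the contact across each bin within 500 kb on either side, and local minima were called boundaries. The summed map gave 2070 boundaries with a median spacing of 1 Mb (lower and upper quartile 0.7 and 1.3 Mb). Each library alone gave 2140 ± 34.5 (SD, n = 4), between 2097 and 2177. Of the 2070 boundaries 1620 (78.3%) had a counterpart within 1 bin in all 4 libraries, 304 in 3 of them and 1 in none. Where only the same bin counted, the share was 46.4%. Strong boundaries were found more often, since 96.1% of the 517 strongest but 48% of the same number of weakest boundaries were found in every library. Erg fl/fl control replicate 2 held 88.2% of the boundaries of the summed map, and the other 3 libraries between 93.6% and 94.3%. The threshold of 0.2 in strength fell in a continuous range, with 0.201 just inside and 0.199 just outside, and 229 local minima were below it.

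Boundary bins were richer in gene starts and in CTCF core motifs than bins away from boundaries. They held 1.17 protein-coding gene starts on average, and bins more than 1 bin from a boundary held 0.767. A gene start was present in 56.3% of boundary bins and in 41.5% of all bins with an insulation score. The motif CCANNAGGGGGC, the core of the CTCF motif, searched on both strands, had 6636 matches on the autosomes and was present in 21.8% of all such bins, 30.3% of boundary bins and 19.7% of bins away from boundaries. The mean number of matches was 0.409 in the boundary bin, 0.345 and 0.332 in the bins on either side and between 0.279 and 0.314 from 200 kb to 1 Mb away. Matches also followed the compartment, with a mean of 0.440 in bins always in A and 0.144 in bins always in B. Boundary bins were not matched to other bins for compartment. The 517 strongest boundaries held the motif no more often (30.2%) than all boundaries. They differed in the compartment, in that 59.4% lay where the compartment changed sign, against 36.9% of all boundaries and 16.2% of all bins.

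**Figure D3:**
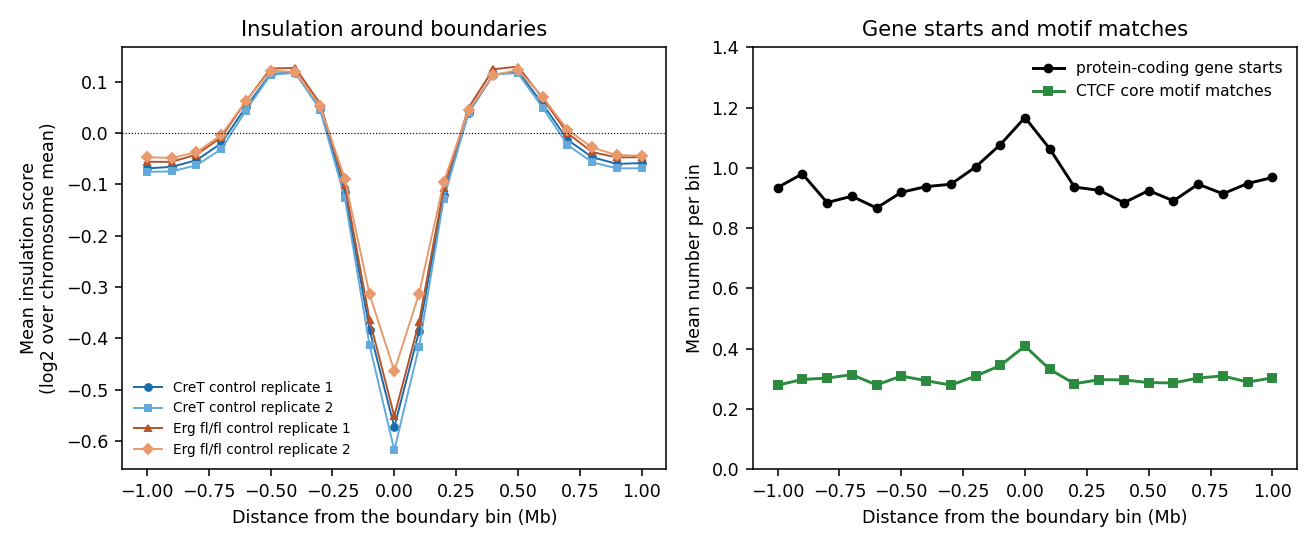
Left, mean insulation score (log2 over the chromosome mean) by distance from 2070 boundary bins, 1 line per library. Right, mean number of protein-coding gene starts and of CTCF core motif matches per bin at the same distances. All 4 libraries dip at the boundary, to between -0.46 and -0.62, and gene starts and motif matches peak in the same bin.

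Most of the 10 strongest boundaries lay between a stretch in A and a stretch in B. The strongest (4.81) lay at chr14:19399522-19500266, a bin whose coverage was 0.553 of the median of kept bins on its chromosome and which was found in only 2 libraries although its insulation was between -3.86 and -4.65 in all 4. The next, at chr12:69099800-69199802, had a strength of 2.62 and holds the starts of Rps29, a ribosomal protein gene, and Mgat2, an enzyme of glycan synthesis. The mean score was -0.853 over the 5 bins before it and 1.81 over the 5 bins after it. At chr11:100200149-100300339 (2.60) the keratin genes Krt14, Krt16, Krt17 and Krt42, which build the epidermis and its appendages, lay at the border to Eif1, a general initiation factor of translation, and Jup. At chr10:128900089-129000060 (2.49) a bin with Cd63, Itga7 and Bloc1s1 faced a run of odorant receptor genes, with a mean score of 1.57 before and -0.542 after it. At a border of strength 2.28 the protocadherin alpha genes, which neurons use for cell recognition, lay next to Cd14, a receptor for bacterial lipopolysaccharide, and Ndufa2, a subunit of the respiratory chain. The others were at chr7:128801492-128900048, beyond Sec23ip and Mcmbp, chr8:112000187-112100667 with Terf2ip and Kars, chr5:125499960-125600225 with Tmem132b, chr3:51200058-51299875 with Noct and chr17:45400139-45500003 with Cdc5l. Outside the first, all 9 were found in 4 of 4 libraries, and the score changed sign across 8 of the 10.

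Motif matches at these borders are shown with the match in capitals and 9 bases of the mm10 reference (RefSeq GRCm38.p6) on either side, read 5′ to 3′ along the strand of the match. They are given because they carry the orientation on which loop formation depends. A match to these letters is a description and not evidence that CTCF was bound.
Border of Cd63 and odorant receptors, chr10:128935583-128935612, plus strand: cattgcgctCCAGCAGGGGGCattctgctg
Border at Tmem132b, chr5:125509702-125509731, minus strand: ggaatcctaCCACTAGGGGGCagcagggag
Border at Tmem132b, chr5:125525672-125525701, minus strand: taacagaggCCAGAAGGGGGCgccagatcc
Border at Terf2ip and Kars, chr8:112040384-112040413, plus strand: atgaagacaCCAGAAGGGGGCatcggattc
The second Tmem132b match and the one at Terf2ip and Kars lie within soft-masked repeats of the reference, as do 21.9% of all matches.

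To find the strongest point contacts, bin pairs 0.5 to 20 Mb apart were kept where observed contacts were at least 2 times the expected number in each of the 4 libraries and no bin pair within 3 bins was stronger. This gave 5595 contacts, of which 1360 spanned up to 3 Mb and 4235 more than 3 Mb. The number depended on the setting and was 1116 at a threshold of 3, 2256 at a summed count of 40, 3422 at equal depth and 8789 without balancing. The median lowest-library value was 2.45 in both ranges, 1116 contacts reached 3 and 62 reached 5. The 8 bin pairs around a contact averaged a median of 1.98 at short and 1.91 at long range, so that most contacts were peaks on ground that was itself raised. Of the short-range contacts 57.9% joined A with A, 30.5% B with B and 11.5% A with B, against 33.2%, 38.6% and 28.3% of the 411094 bin pairs with enough reads to be examined. At long range the A with A share (50.8%) was close to that of the 138539 examined pairs (49.7%), and that of A with B (6.89%) was below theirs (17.3%). Of short-range contacts 28.2% had both anchors, and 72.3% at least 1 anchor, within 1 bin of a boundary, against 8.31% and 48.8% of the pairs examined. At long range the shares were 10.1% and 49.96%, against 11.3% and 54.2%. Examined pairs needed 20 read pairs in the sum, while the mean was 11.6 at 5 Mb and 7.41 at 10 Mb. From 5 Mb on they thus all exceeded the mean count, so the long-range comparisons are among pairs that were already raised.

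Short-range contacts held convergent and same-strand (tandem) motifs somewhat more often than the pairs examined did, which were not matched for compartment. Of 1360, 43 (3.16%) had a forward match in the left anchor and a reverse match in the right one, the convergent layout, against 2.10% of pairs examined. The divergent layout was found in 27 (1.99%) against 2.10%, and both tandem layouts in 41 each (3.01%) against 2.14% and 2.11%. Among the 287 short-range contacts at 3 or more in every library, 15 (5.23%) were convergent and 6 (2.09%) divergent. At long range all 4 layouts were rarer in contacts than in the pairs examined, with 2.34% convergent against 3.31%. The limit on read pairs bears on this comparison too. An anchor of 100 kb can hold several matches, so a contact can count for more than 1 layout.

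The 10 strongest short-range contacts were ranked by their lowest library, and 6 of them had both anchors within 1 bin of a boundary. A contact of 1.7 Mb tied the bin of Myc, which encodes a growth-promoting factor of many progenitors, to chr15:63600054-63700021, a bin downstream of it with no protein-coding gene start. Its observed over expected values were 8.08 and 8.84 in the CreT control and 7.91 and 6.77 in the Erg fl/fl control, from 528 read pairs. A larger one of 2.6 Mb around the same gene joined chr15:61099985-61199979 with chr15:63700018-63799782 at 10.1, 11.7, 12.8 and 9.52 in the same order, from 400 read pairs. Both contacts stood above 6 in every library, as did all 10, which were picked by that lowest value. The bin of Klrd1, Klre1 and Olr1, which include lectin-like receptors of NK cells, met the bin of Styk1 and Ybx3 across 1.8 Mb of chromosome 6 at 7.44, 9.39, 7.50 and 7.51. A contact of 1.0 Mb on chromosome 16 ran from Clic6 to Setd4 at 8.32, 10.02, 8.13 and 7.07, from 858 read pairs, and spanned Runx1, a master factor of blood formation. Both anchors lie within 1 bin of an end of the domain that holds Runx1 (chr16:92399718-93700042, both boundary bins included). The bin of Bcl11a, a repressor needed for early B cells, met a bin without a protein-coding gene start 1.8 Mb away, chr11:25800014-25900304, at 6.62, 6.88, 7.13 and 6.90. The remaining ones were chr9:60900158-61000081 with chr9:61800018-61899974, between Uaca and Rplp1, at 7.39 to 9.01, chr10:37000056-37100020 with chr10:38999982-39100108, from Hdac2 to Lama4, at 6.74 to 7.74, and Tarbp1 and Coa6 with Rbm34 and Tomm20 on chromosome 8 at 6.07 to 6.66.

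In 2 of the 10 the anchors shared sequence. The histone genes of chromosome 13 lie in clusters of which 2 met across 1.8 Mb, from Hist1h1b and its neighbours to Hist1h1d and its neighbours, at 9.62, 11.4, 12.4 and 11.1 from 310 read pairs. These anchors share 1396 of their unmasked 36-base words, of 56082 in the first anchor. The highest lowest-library value (10.2) was that of chr2:175099967-175200063 with chr2:177499816-177599996, the bins of Gm14399 and Gm14406. It rests on 24 read pairs, its bins had 0.297 and 0.302 of the median coverage of kept bins on the chromosome, their anchors share 2484 words, and without balancing its value was 0.99. In the 8 other pairs no word was shared, and the value without balancing was between 7.45 and 17.9.

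**Figure D4:**
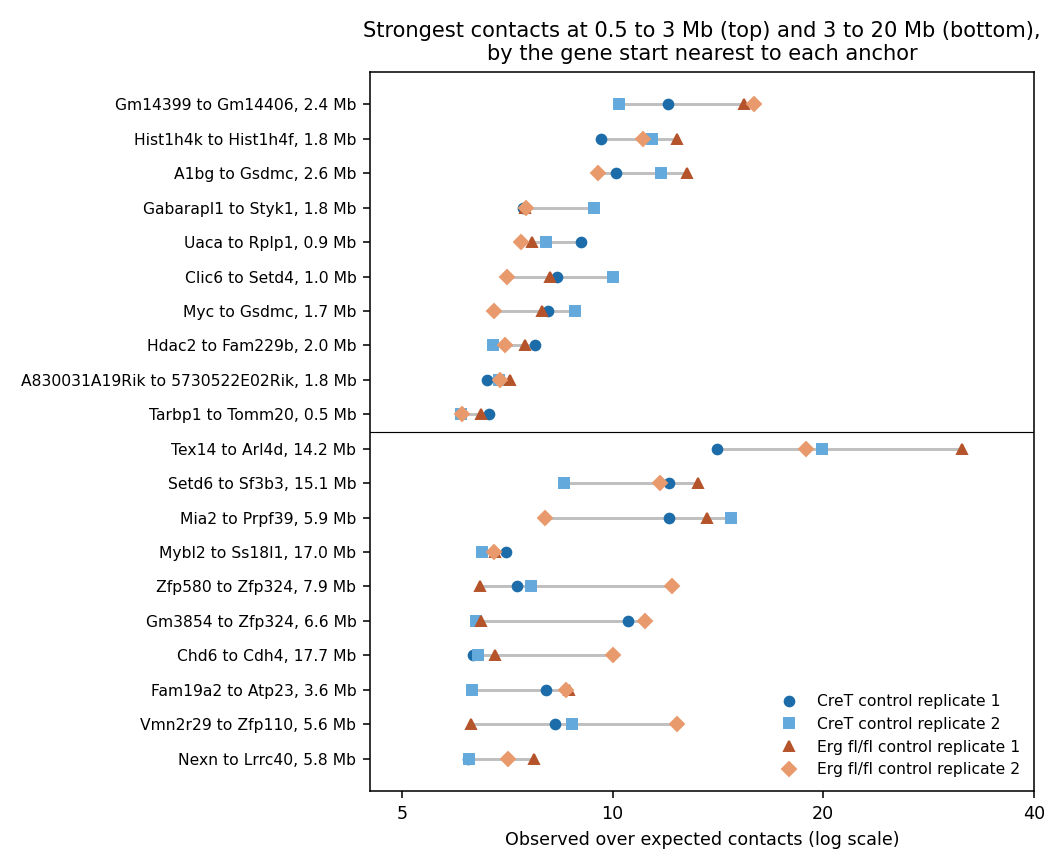
Observed over expected contacts (x axis, log scale) of the 10 strongest contacts at 0.5 to 3 Mb (top) and the 10 strongest at 3 to 20 Mb (bottom), 1 point per library, named by the gene start nearest to each anchor with the distance between anchors. Short-range contacts lie close together in the 4 libraries, and the contact of Tex14 with Arl4d, 14.2 Mb apart, stands furthest right.

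The anchors of the 10 short-range and the 10 long-range contacts held 14 motif matches. All 6 at short range pointed towards the other anchor, and at long range 3 of 8 did and 5 pointed away. Of these 14, 7 are shown, namely the 4 unmasked short-range matches and 3 that resemble each other, of which the last points away. Capitals mark the motif.
Runx1 domain, left anchor, chr16:92511910-92511939, plus strand: tttgttgccCCACTAGGGGGCagacatagg
Runx1 domain, left anchor, chr16:92520004-92520033, plus strand: atcttgtaaCCACGAGGGGGCaccaatgcc
Bcl11a domain, left anchor, chr11:24008421-24008450, plus strand: gtgctatcaCCACGAGGGGGCggactctga
Hdac2 to Lama4, right anchor, chr10:39067148-39067177, minus strand: gcttgtgaaCCAGCAGGGGGCagcagagat
Tomm20, right anchor, chr8:126980551-126980580, minus strand: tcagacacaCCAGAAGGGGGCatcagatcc
Tex14, left anchor, chr11:87403101-87403130, plus strand: tcagacacaCCAGAAGGGGGCatcggatac
Arl4d, right anchor, chr11:101694863-101694892, plus strand: tcagacacaCCAGAAGGGGGCatcagaaat
The last 3 lines lie in soft-masked repeats and resemble each other beyond the motif. The Tomm20 and Tex14 windows share 28 of their 30 letters, and the Tomm20 and Arl4d windows 27. The Tex14 and Arl4d windows, from the anchors of the same contact, share 27 too. A further masked window, not shown, in the Setd6 anchor (chr8:95759159-95759188) also shares 27 letters with that of Tomm20. The median over all pairs of the 18 windows found at named contacts and borders was 16. None of the 4 unmasked windows shown had a partner of opposite strand in the other anchor.

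At 3 to 20 Mb the strongest contact tied the bin of Tex14 and Rad51c to that of Arl4d and Rdm1, 14.2 Mb apart on chromosome 11. Its values were 14.1, 19.9, 31.5 and 18.9, from 135 read pairs, and the bins around it averaged 5.6. Rad51c acts in repair by homologous recombination and Tex14 in the germ line. Setd6 met Sf3b3, a splicing factor gene, at 8.52 to 13.3 over 15.1 Mb of chromosome 8, and Mia2 met Fancm and Prpf39 at 8.00 to 14.8 over 5.9 Mb of chromosome 12. On chromosome 7, 3 of the 10 joined zinc finger gene clusters. The bins of Zfp580 and of Zfp28 met the bin of Zfp324 and Trim28, the co-repressor that many zinc finger proteins recruit, and the bin of Zfp772 met that of Zfp110 and Zfp128. The libraries ranged from 6.28 to 12.4 in these 3. The 10 contacts rest on 35 to 166 read pairs, and the highest library was a median of 1.66 times the lowest, against 1.27 times for the 10 at short range. No anchors of the 10 shared an unmasked 36-base word, which leaves out masked repeats such as the similar windows of the Tex14 and Arl4d anchors. Of the 10, 9 joined A with A, and 1 joined B with B.

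The local contact index of a gene is the log2 of observed over expected contacts of the bin of its start with bins 200 kb to 2 Mb away. It was used to ask whether B-lineage genes hold more of their contacts at this range than genes of other lineages. On balanced maps all kept bins of a chromosome have the same total, so the index is no measure of chromatin density. Of 200 genes on 8 lists, 196 were measured, and the 4 left out (Btk, Gata1, Hprt and Pgk1) lie on the X chromosome. The median over 67 B-lineage genes was 0.18, 0.14, 0.12 and 0.23 in CreT control replicates 1 and 2 and Erg fl/fl control replicates 1 and 2. Over 79 T-lineage, myeloid, NK and stromal genes it was 0.18, 0.15, 0.18 and 0.24. The difference was -0.018 ± 0.023 (SD, n = 4), within the spread between libraries, and it took the opposite sign with a window of 200 kb to 1 Mb (0.031) and with neighbouring bins included (0.027). It was further below 0 without stromal genes (-0.069) and without balancing (-0.12). Above 0 in all 4 libraries were 41 of the 67 B-lineage genes and 47 of the 79 other-lineage genes, a share of 61.2% and 59.5%, while 54.7% of all 20269 protein-coding genes were, and 28.8% of those were below 0 in all 4. Over all those genes the median was 0.10 to 0.17.

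**Figure D5:**
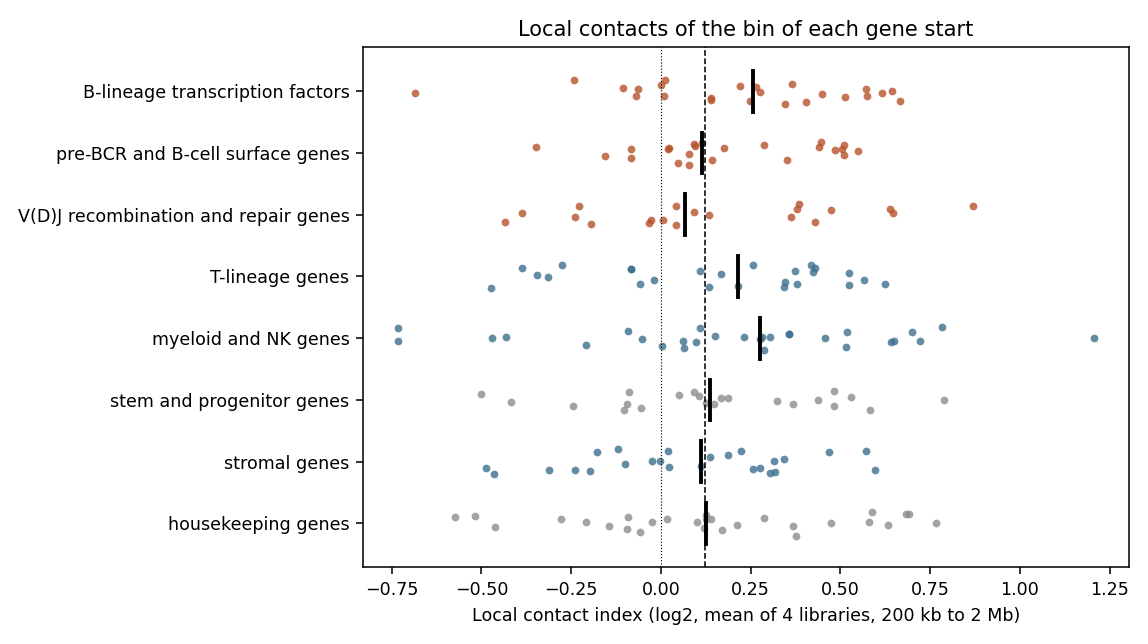
Local contact index (x axis, log2, mean of 4 libraries) of each measured gene by list, 1 point per gene, with the list median as a bar and the median of all protein-coding genes as a dashed line. B-lineage lists are orange, the other-lineage lists blue and the remaining lists grey. Each list spreads far more widely than the list medians differ.

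By compartment the stromal list had the smallest share of genes in A, which was not tested. In A in all 4 libraries were 64 of 67 B-lineage genes (95.5%), and 63 of 79 other-lineage genes (79.7%), while 76.1% of all protein-coding genes were. By list, 22 of 24 B-lineage transcription factors, 22 of 23 pre-BCR and B-cell surface genes and 20 of 20 V(D)J recombination and repair genes were in A throughout. So were 28 of 29 myeloid and NK genes, 21 of 25 T-lineage genes, 19 of 22 stem and progenitor genes and 28 of 28 housekeeping genes. Stromal genes, which are used by the feeder cells, had 14 of 25 in A throughout and 7 in B (Col3a1, Postn, Dcn, Lum, Pdgfra, Twist1 and Lepr). Their median score was 0.249 to 0.356 in the 4 libraries, and that of the B-lineage transcription factors was 1.10 to 1.31. The T-lineage and myeloid medians, at 1.25 to 1.37 and 1.30 to 1.38, were as high.

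Among the B-lineage transcription factors Foxo1, which drives Rag gene expression in early B cells, had the highest local index (0.73, 0.72, 0.66 and 0.54; mean 0.66). It starts in a boundary bin, and its domain of 0.8 Mb holds 3 gene starts, Foxo1, Lhfp and Cog6. Its strongest contact reached the Cog6 end 0.7 Mb away at 3.36 to 4.36. Runx1 (mean 0.64 ± 0.10) and Bcl11a (0.62 ± 0.07) followed, in domains with 7 gene starts over 1.2 Mb and 2 over 2 Mb. Ikzf1, the gene of Ikaros and needed for B-lineage specification, stood at the other end with -0.72, -0.63, -0.62 and -0.77, the lowest of the 24. Lef1 was at -0.24 ± 0.03 and Irf4, a factor of the preB transition, at -0.11 ± 0.07. All 4 libraries placed Ikzf1 below Lef1 and both below Foxo1, Runx1 and Bcl11a. These genes were picked by their mean over the same libraries, so this order is a description. Ikzf1 sat in a weak A bin (0.332 ± 0.0485) of a domain whose mean score was -0.363, together with Grb10 and Ddc.

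Erg itself lay in A in all 4 libraries, with scores of 0.794, 0.589, 0.875 and 1.10 in the bin of its start and a local index of 0.36 ± 0.05. Its domain, chr16:94700006-96200594, holds 10 gene starts with the related factor gene Ets2 among them. Pax5, which commits cells to the B lineage, scored 1.38 ± 0.183 at its start and 0.751 at its far end, with a local index of 0.14 ± 0.06 and a domain of 0.7 Mb. Ebf1 differed from both. Its start scored -0.732, -0.788, -0.526 and -0.0979, and all 5 bins that the gene covers were in B in every library, with means from -0.536 to -0.891. Its local index was 0.41 ± 0.08, and its domain, chr11:44499820-45999929, holds 6 gene starts over 1.4 Mb. The bin before that of the Ebf1 start, the first of the domain, met the bin of Lsm11 at its other end, 1.4 Mb away, at 3.75, 3.43, 3.69 and 3.09. Ebf1 and Bcl11a were the 2 B-lineage transcription factors in B throughout. For all 3 of Erg, Pax5 and Ebf1 the highest score was that of Erg fl/fl control replicate 2 and the lowest that of CreT control replicate 2.

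Among pre-BCR and surface genes Cd79b, a signalling chain of the B-cell receptor, was highest in local contacts (0.52, 0.54, 0.48 and 0.66). Il7r, the receptor of the cytokine on which these cultures depend, was at 0.51 ± 0.09 and Ms4a1, which encodes CD20, at 0.51 ± 0.08. Cd93 (-0.35 ± 0.08), Blk, a kinase of the receptor pathway (-0.16 ± 0.07), and Bst1 (-0.08 ± 0.07) were lowest. For Bst1 the libraries ran from -0.17 to -0.02, and all 4 were below 0. Kit, the receptor of SCF, was the 1 gene of this list that was not in A in every library, with scores of -0.156, -0.144, 0.062 and -0.041. Of the 23 genes 16 (69.6%) had an index above 0 in all libraries and 4 (17.4%) below 0 in all, against 54.7% and 28.8% of all protein-coding genes.

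V(D)J recombination and repair genes had the lowest list median (0.04 to 0.11), with 9 of 20 (45%) above 0 in every library and 5 (25%) below 0 in every library, both shares below those of all protein-coding genes (54.7% and 28.8%). Dclre1c, which encodes the hairpin-opening nuclease Artemis, was highest at 0.85, 0.87, 0.82 and 0.94. It lies near the start of chromosome 2 (chr2:3424131-3464130), and the effect of that position on the index was not tested. The polymerase genes Poll (0.65 ± 0.04) and Polm (0.64 ± 0.07), both of end joining, came next in local index. Hmgb2, a cofactor of the RAG proteins, was lowest at -0.39, -0.37, -0.40 and -0.58, then Nhej1 (-0.39 ± 0.04) and Atm, the kinase that senses double-strand breaks (-0.24 ± 0.08). Rag1 and Rag2 share a bin with a mean score of 0.265. The bin next to it met the bin of Api5, 7.1 Mb away, at 5.16, 4.29, 7.79 and 10.96 from 71 read pairs. This contact was chosen after its values were seen. Both Erg fl/fl libraries, which were the shallower ones, were above both CreT libraries in it.

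The highest and the lowest mean local index lay outside the B lineage. Csf2ra, a receptor chain of myeloid growth, had the highest local index of any list gene (1.19, 1.09, 1.21 and 1.34), and Id2, an inhibitor of E proteins, had 0.78 ± 0.08. Csf2ra lies near the distal end of chromosome 19 (chr19:61223957-61228429). Balancing gives every bin of a chromosome the same total, which can raise the index of a bin near a chromosome end, and this was not tested. S100a8 and S100a9, genes of a calcium-binding complex of neutrophils, share a bin within 1 bin of a border of strength 2.25. They had the lowest local index by mean (-0.87, -0.93, -0.74 and -0.40). Ikzf1, of the B lineage, had a mean of -0.69 and was the lower in Erg fl/fl control replicate 2, at -0.77. The score of S100a8 and S100a9 was 2.11, the highest of the listed genes. Of T-lineage genes Zap70 (0.62 ± 0.04) and Runx3 (0.57 ± 0.03) were high. Hoxa9 (0.79 ± 0.11) and Gfi1b (0.58 ± 0.03) were the highest stem and progenitor genes, and Tal1 (-0.50 ± 0.08) and Tek (-0.42 ± 0.05) the lowest. Col5a1 (0.60 ± 0.04) and Col1a2 (0.57 ± 0.12) against Col3a1 (-0.49 ± 0.07) and Vcam1 (-0.46 ± 0.13) marked the range of stromal genes, and Eef2 (0.77 ± 0.06) and Rpl4 (0.69 ± 0.08) against Gusb (-0.57 ± 0.12) and Eef1a1 (-0.52 ± 0.10) that of housekeeping genes. Housekeeping genes thus ran from -0.57 to 0.77, and B-lineage transcription factors from -0.69 to 0.66.

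Boundaries and strong contacts were close to most lists at rates near those of all genes. Within 1 bin of a boundary were 22 of 67 B-lineage genes (32.8%) and 33.6% of all protein-coding genes. The rate was 17 of 29 for myeloid and NK genes (58.6%) and 11 of 22 for stem and progenitor genes. Within 1 bin of an anchor of a strong contact were 55 of 67 B-lineage genes (82.1%), 58 of 79 other-lineage genes (73.4%) and 73.6% of all protein-coding genes. Some contacts of single B-lineage genes were chosen after their values were seen, as was the one of Rag1. Zeb2 met a bin 1.4 Mb away at 5.76, 6.19, 4.54 and 3.42, and Foxp1 one 1 Mb away at 3.74 to 4.18.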

How the data were processed

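Only the 4 control libraries of the in situ Hi-C series were analysed, grouped by genotype label, and the 2 Erg KO libraries were left out. The members and gene lists were chosen with earlier results of these data known. The authors used diffHic, with cutadapt and bowtie2, for alignment to mm10, marked duplicates with Picard and discarded dangling ends. The deposited values are raw counts of read pairs per pair of bins of about 100 kb, each made of whole restriction fragments, with 1 table per library and no pooling. The labels give a culture of 8 days, which the study's methods state differently. No deposited column of per-sample values was left unused in the control tables.

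From these counts, maps of the 19 autosomes were balanced iteratively over 50 rounds per chromosome, for each library and for their sum, and divided by the mean at each distance over all autosomes. The compartment score was the one of the first 3 components that best followed the density of protein-coding gene starts in the GENCODE annotation of mm10. GC content, repeats and motifs were read from RefSeq GRCm38.p6, the same assembly. The decay exponent was fitted to raw counts. Insulation used 500 kb windows, with boundaries at local minima within 3 bins of strength 0.2 or more. Strong contacts needed 20 read pairs in the sum, 3 in each library and an observed over expected value of 2 or more in all 4. A raw count of 3 keeps a wide counting error, so contacts of few read pairs are the least certain. Named genes were Erg, Ebf1 and Pax5, and the 3 highest and 3 lowest local indices of each B-lineage list and the 2 highest and 2 lowest of each other list. Named regions were the 5 longest stretches per compartment, the 10 highest and 10 lowest bins, the 10 strongest boundaries and the 10 strongest contacts per distance range. Scripts used Python 3.11.15, numpy 2.4.6, pandas 2.3.3, scipy 1.17.1 and matplotlib 3.10.9, and were tested on simulated maps. Alternatives were other windows, thresholds and bin filters, no balancing, equal depth and leaving out each library. No statistical test was made.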

Additional observations from a re-analysis of the deposited data

Results flagged for a closer look

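Of 100 values examined over the 4 libraries, 3 had 1 library set off from the rest by a gap that took most of the range (Dixon's 95% limit), which chance alone gives in about 1 in 20 groups. All 3 concerned Erg fl/fl control replicate 2, the shallowest library and the only male one. It held 88.2% of the boundaries of the summed map, against 93.6% to 94.3% in the other 3 libraries. The local contact index of Hmgb2, a cofactor of the RAG proteins, was -0.58 in it and between -0.40 and -0.37 in the others. That of Gusb, a lysosomal enzyme used as a reference gene, was -0.39 in it and between -0.66 and -0.62 in the others. The part of depth and sex in these 3 values was not tested.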

How the results depend on the processing

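Of 72 values computed under alternative settings 50 moved by no more than a set limit and 22 moved further. The limit was the SD over the 4 libraries, 1.5 times for a count and the SD over pairs of libraries for the lowest correlation. For the share of boundaries it was the binomial interval of the main value (76.4% to 80.0%), which measures no spread between libraries. With the top and bottom 10% of bins the compartment strength was 9.09. The share of boundaries found in all 4 libraries was 75.3% with an insulation window of 10 bins, 46.4% where only the same bin counted, 73.5% without balancing and 75.5% at equal depth. Over 3 libraries it was between 80.4% and 86.0%, with the highest value without Erg fl/fl control replicate 2. The decay exponent was -1.12 over 0.5 to 2 Mb. The difference in local contacts between B-lineage and other-lineage genes was 0.031 with a window of 200 kb to 1 Mb and 0.027 with the bins on either side included, the opposite sign from -0.018, and -0.069 without stromal genes and -0.12 without balancing. Without 1 library it lay between -0.024 and -0.007. There were 1116 strong contacts at a threshold of 3, 2256 at a summed count of 40, 8789 without balancing, 3422 at equal depth and between 5268 and 8059 without 1 library. Compartment A took 45.8% of bins without balancing, 45.3% with a bin filter of 0.5 to 2 and 45.04% at equal depth. The lowest correlation of scores was between 0.975 and 0.989 without 1 library. The causes were not tested. Boundaries numbered between 1520 and 2533 over all settings. No paired analysis was possible because the results come from no test. Bins of 100 kb cannot show single loops or the floxed part of Erg, and long-range contacts rest on few read pairs.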
